A study of Mus musculus with 189 samples.

Results

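The genes described here are 54 components and regulators of the actin cytoskeleton, chosen by name for their known role, with earlier results of these data known. All 54 were found among the 46078 gene rows of the count table, and 50 had at least 5 CPM (a gene's reads scaled to a fixed total of gene reads) in the pooled cells of either group. The data were RNA profiles of 189 peritoneal cells, each sequenced singly, from female C57BL/6 mice (4 animals), in a series about the late steps of mast cell differentiation. By their labels 94 are mature mast cells and 95 are basophil-mast cell progenitors (BMCPs). All of them were live, lineage-negative and positive for the stem cell factor receptor c-Kit and for the IgE receptor FcεRI. Mature mast cells carried low integrin β7 with high side scatter, and BMCPs carried high integrin β7 with low side scatter. No genotype or treatment separated the groups, and no label tied a cell to 1 of the 4 mice. Each group was therefore handled as 1 pooled sample without replicates, so the values below have no test and no replicate check.

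Actin is a small globular protein that assembles into filaments, and a cell reshapes itself by adding, capping, severing and crosslinking those filaments. The Arp2/3 complex starts new filaments as branches on the side of old ones when WASP or WAVE proteins activate it, whereas formins build unbranched filaments. Small GTPases such as Rac and Cdc42 switch these factors on, and myosin II pulls on the filaments. In mast cells the cortical actin network is known to take part in migration, in adhesion and in the control of granule release.

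The stretch of genome before the transcription start is shown for 4 members, 3 because their levels stood furthest apart between the groups (Coro1a, Fmnl1 and Flna) and Tmsb4x because it was the most abundant member per length in BMCPs. Each sequence is the 250 bases before a start site in the RefSeq table of build GRCm38.p6, written 5′ to 3′ on the strand of the gene. Capitals mark matches, in either orientation, to any of 6 motifs searched for: the GC box (GGGCGG), the ETS core (CCGGAAG), the site of GATA factors (AGATAA), the AP-1 site (TGANTCA), the RUNX site (TGTGGT) and the CArG box of serum response factor. No match overlapped another in these 4 windows.
Coro1a, chr7:126704817-126705066, minus strand: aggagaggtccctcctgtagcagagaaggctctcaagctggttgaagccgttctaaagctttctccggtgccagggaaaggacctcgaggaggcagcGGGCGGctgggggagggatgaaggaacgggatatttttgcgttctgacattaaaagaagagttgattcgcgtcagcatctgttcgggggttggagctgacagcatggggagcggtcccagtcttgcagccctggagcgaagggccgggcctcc
Fmnl1, chr11:103170888-103171137, plus strand: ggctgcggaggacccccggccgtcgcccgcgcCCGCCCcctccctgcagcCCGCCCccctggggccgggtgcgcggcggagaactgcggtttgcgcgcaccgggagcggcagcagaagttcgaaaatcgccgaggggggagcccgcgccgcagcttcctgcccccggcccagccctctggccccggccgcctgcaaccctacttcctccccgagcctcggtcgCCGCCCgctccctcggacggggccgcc
Flna, chrX:74246535-74246784, minus strand: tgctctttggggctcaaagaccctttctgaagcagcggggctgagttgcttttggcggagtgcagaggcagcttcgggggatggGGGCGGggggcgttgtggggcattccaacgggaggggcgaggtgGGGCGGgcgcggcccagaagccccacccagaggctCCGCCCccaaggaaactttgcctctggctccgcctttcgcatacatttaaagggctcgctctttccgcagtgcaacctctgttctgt
Tmsb4x, chrX:167209219-167209468, minus strand: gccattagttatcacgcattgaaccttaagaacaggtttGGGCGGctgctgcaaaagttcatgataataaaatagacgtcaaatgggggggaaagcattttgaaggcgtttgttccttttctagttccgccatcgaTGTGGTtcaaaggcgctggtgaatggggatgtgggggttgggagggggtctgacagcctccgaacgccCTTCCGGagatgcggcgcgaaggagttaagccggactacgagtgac

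The table held 48 of the 54 members, with 64 windows, the members without one being Actb, Twf2, Diaph1, Coro1b, Rac1 and Rac2. A GC box stood in 42 of the 64 windows (65.6%), against 32.7% of all 32851 windows of the same length. The ETS core stood in 13 member windows (20.3%) and in 6.91% of all windows, and the CArG box in 5 (7.81%) and 1.47%. The 5 members with a CArG box were Actg1, Arpc4, Myl6, Vcl and Vil1. The other motifs were not more frequent in member windows, with a GATA site in 3 (4.69%, against 9.99% of all), an AP-1 site in 3 (4.69%, against 6.75%) and a RUNX site in 6 (9.38%, against 14%). The median GC content was 61.6% in member windows and 52.4% in all windows, and the GC box and the ETS core are themselves rich in G and C. The GC boxes of Coro1a, Fmnl1 and Flna are the marked stretches above, and the Tmsb4x window held a GC box, a RUNX site and an ETS core. Another start site of Coro1a in the table had none of the 6 motifs. These are letter matches only and do not show binding.

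After 4 BMCPs were left out, 94 mature mast cells and 91 BMCPs remained, with 561600 to 2152221 gene reads per mature mast cell and 344022 to 2091665 per BMCP. BMCP numbers 6 and 93 had too few reads (3978 and 36972). BMCP numbers 46 and 80 had almost no Cpa3, a mast cell protease (113 and 160 CPM), while the B cell genes Cd74 (49765 and 43636 CPM) and Cd79a (4795 and 6527 CPM) were high in them. All 10 mast cell granule genes and all 5 genes of the sort markers were detected in both groups, and the granule genes made up 18.1% of BMCP reads and 28.5% of mature mast cell reads. Of the basophil marker genes, Mcpt8 stood at 30.2 CPM (mature) and 3375 CPM (BMCPs), where 39 of 91 cells reached 100 CPM, and Itga2 had 3.83 and 41.5 CPM. The other basophil genes above 5 CPM were higher in mature mast cells, with Prss34 at 2899 against 1619 CPM and Cd200r3 at 557 against 353 CPM. The 5 basophil genes summed to 4.33 to 30540.2 CPM in single mature mast cells (median 934) and 3.64 to 37348 CPM in BMCPs (median 1446), with Cebpa at 0 in both groups. The 12 immediate early genes, which respond to handling of cells, summed to 0 to 3057 CPM (median 328) and 0 to 7971 CPM (median 921), and 7 of the 10 that passed 5 CPM were at least 2-fold higher in BMCPs, beside 18.2% of all genes, while Jund was higher in mature mast cells (20.9 against 9.58 CPM). Among kept cells the 7 B cell marker genes summed to 0 to 1355 CPM in single mature mast cells (median 104) and 0 to 1575 CPM in BMCPs (median 3.19), and the pair that passed 5 CPM, Cd79b and Ighm, had the higher pooled level in mature mast cells. None of the 10 macrophage, 7 neutrophil, 8 NK cell and 6 erythroid marker genes reached 5 CPM in either group. Of the 8 T cell genes, 3 did, namely Lat at 174 CPM in mature mast cells against 342 in BMCPs, Cd247 at 12.8 against 3.27 and Lck at 0 against 7.36, while Cd3d, Cd3e and Cd3g were at 0 in both. Of the 5 eosinophil genes, Ccr3 (0 against 16.3 CPM) and Il5ra (15.5 against 4.48) passed, with Prg2 at 0 in both groups. Of the 7 platelet and 7 mesothelial genes, Itga2b (228 against 434 CPM) and Krt18 (0.00842 against 5.26 CPM) passed. Single cells held most BMCP reads of some of these genes. BMCP number 49 held 100% of those of Krt18, number 44 99.8% of those of Lck and number 53 88.6% of those of Ccr3. The part of granule reads, marker genes of other cell types and immediate early genes in the differences below was not tested.

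The actin genes as a set were spread less widely than other genes and sat close to the middle of them. A ratio here is the log2 of mature mast cell CPM over BMCP CPM, with 1 CPM added to both. Where a pair of CPM or RPKM values is given without naming cells or groups, the first is of mature mast cells. Its median was -0.34 over the 50 members (middle 50% from -0.60 to -0.01) and -0.24 over the 10478 genes that reached 5 CPM in a group (-0.76 to 0.29). Of the 50 members, 28 lay below the all-gene median and 22 above it. A total of 38 members (76%) lay within 0.5 of that median, against 48% of all genes. Ratios of abundant genes varied less: among genes of at least 200 CPM the shares were 88.9% of 27 members and 66.7% of all 796 genes.

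A total of 3 members had a level at least 2-fold higher in BMCPs, beside 18.2% of all genes, and 0 were at least 2-fold higher in mature mast cells, beside 9.83% of all genes. The 3 members were the coronin Coro1a, the formin Fmnl1 and the crosslinker Flna. At a minimum of 50 CPM, which 42 members passed, the counts were again 3 and 0, with 13.2% and 4.17% of all genes.

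The zero point of these ratios depended on the scaling. The all-gene median was -0.02 with TMM scaling, -0.05 when granule genes were left out of the totals, and 0.61 when reads were scaled to the ERCC spike-in RNA (0.41 without BMCP number 55, a cell with 38126 spike-in reads). The members moved with the rest, their median being 0.53 on the spike-in scale, where 33 of 50 had the opposite sign. Pooled cells held 21 member reads for each spike-in read in mature mast cells and 14.4 in BMCPs. Members are therefore described by their distance from the all-gene median. These 4 scalings multiply all genes of a group by the same factor, and the scaling without BMCP number 55 also leaves out that cell. The side of the median on which a member lies was thus nearly fixed in advance. Only Arhgdib changed side, on both spike-in scales (-0.02 as reported). Other settings moved more of the 50 members across it, 10 with medians over cells, 8 without the top cell of each gene, and 8 and 7 within the 2 blocks of table columns described below. Whether a mature mast cell held more actin-related RNA in absolute terms was not tested.

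The columns of the count table stand in 2 blocks, the first with mature mast cells up to number 47 and BMCPs up to number 48 and the second with the remaining cells of both groups. The labels do not say what the blocks are, and comparing within each was chosen after the data were seen. In both blocks Coro1a, Flna and Fmnl1 were at least 2-fold higher in BMCPs. On the same side of 0 in both were 34 of 50 members, and this share was not computed for all genes. The all-gene medians of the blocks were themselves below 0 (-0.23 and -0.24), so the count is no replicate check. The counts past 2-fold towards BMCPs were 5 and 10 members, beside 23.3% and 23.7% of all genes, and those towards mature mast cells 0 and 0, beside 16.3% and 16.2%.

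**Figure D1:**
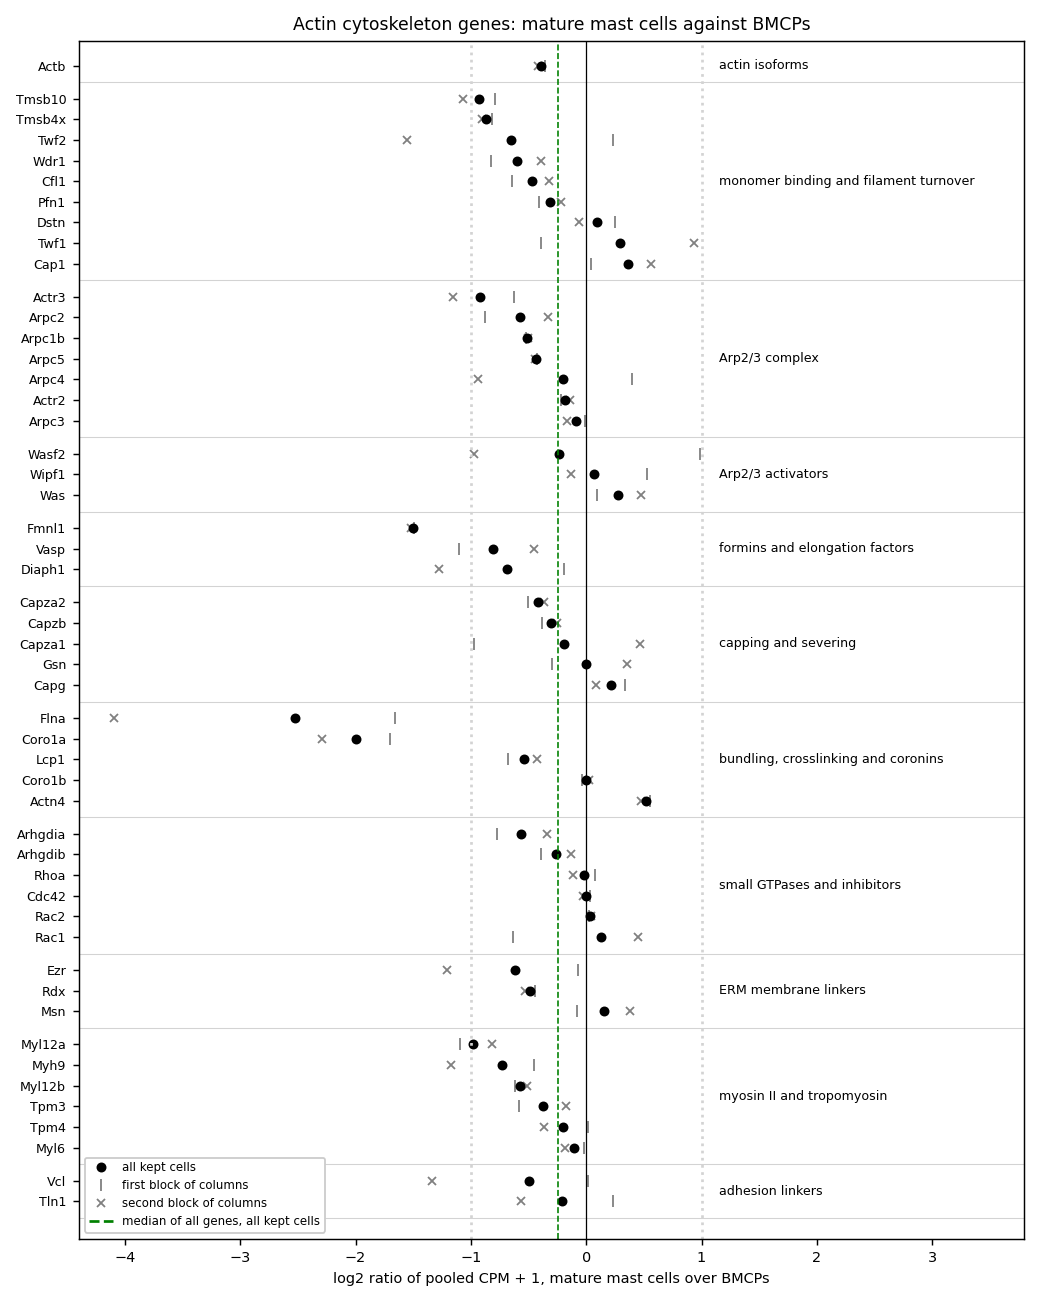
Log2 ratio of pooled CPM + 1 (mature mast cells over BMCPs, horizontal axis) for the 50 members with at least 5 CPM, in role groups. Filled circles are all kept cells, grey ticks and crosses the first and second block of table columns, the dashed line the all-gene median of -0.24 and dotted lines the 2-fold limits. Coro1a, Fmnl1 and Flna are left of the limit of -1 in all cells and in both blocks.

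As a share of all gene reads the 54 members took 2.59% in mature mast cells and 3.28% in BMCPs. Single cells ranged from 1.75% to 3.87% (median 2.55%, SD 0.370, 94 cells) in mature mast cells and from 1.65% to 6.01% (median 3.12%, SD 0.920, 91 cells) in BMCPs. The mature range lay inside that of the BMCPs, which were more spread out. Without the granule genes in the total the shares were 3.62% and 4.0%, which left a difference of 0.381 percentage points in place of 0.690. The 5 genes Actb, Rac2, Arhgdib, Tmsb4x and Pfn1 held 54% of member reads in BMCPs and 53.7% in mature mast cells.

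Compared per length, as RPKM (CPM divided by the exon length in kilobases), the same 5 genes led in both groups, but not in the same order. In mature mast cells Actb came first (1795 RPKM), then Arhgdib (1533), Tmsb4x (1321), Rac2 (1024) and Pfn1 (622). In BMCPs Tmsb4x came first (2409 RPKM) and Actb next (2355), followed by Arhgdib (1841), Rac2 (1001) and Pfn1 (773). Neighbours in these orders differed by less than 1 SD over cells of the higher gene, except Rac2 above Pfn1 in mature mast cells and Arhgdib above Rac2 in BMCPs. Coro1a differed most in rank among the 54 members, with rank 19 by RPKM in mature mast cells and rank 8 in BMCPs.

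**Figure D2:**
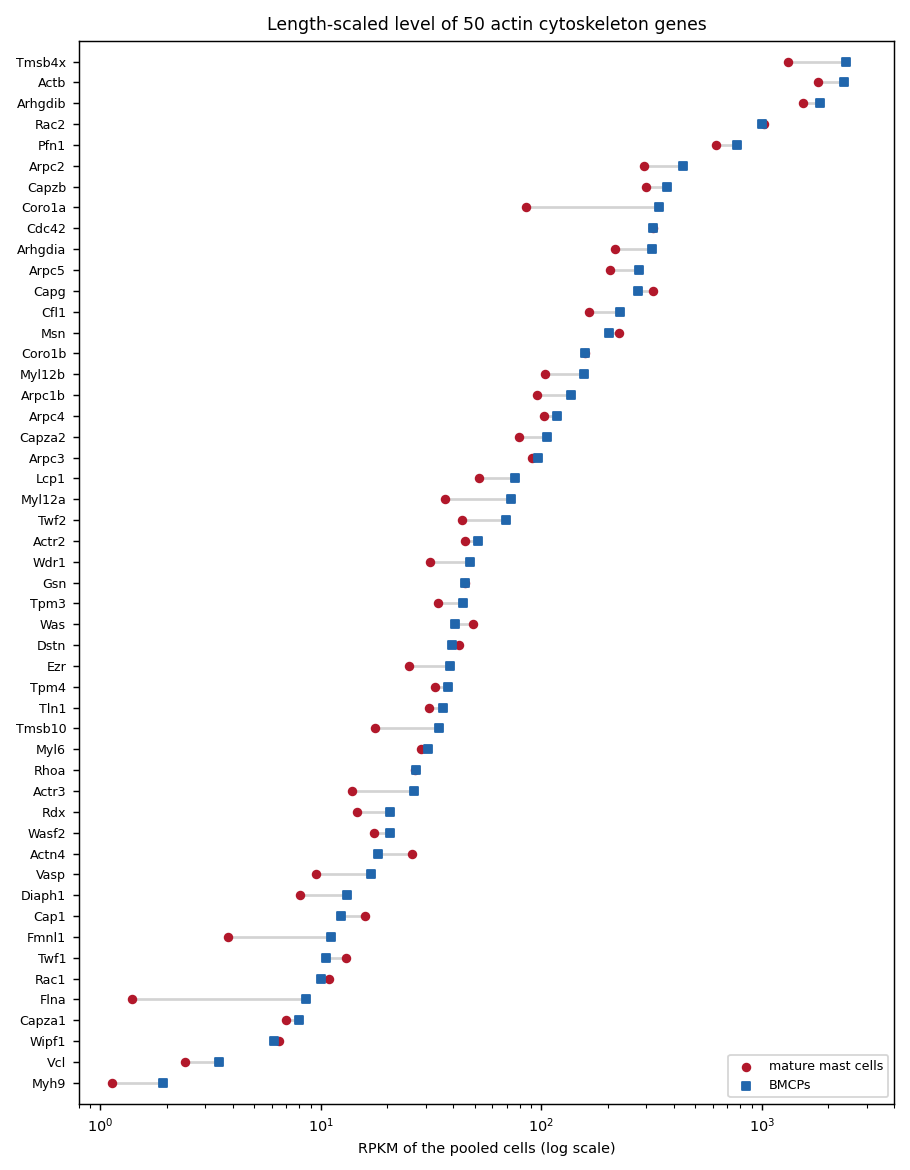
Pooled RPKM (horizontal axis, log scale) of the 50 members with at least 5 CPM, ordered by their level in BMCPs. Red circles are mature mast cells, blue squares BMCPs, and grey lines join the 2 groups. Coro1a (85.6 against 342 RPKM), Fmnl1 (3.8 against 11.1) and Flna (1.4 against 8.54) have the longest lines.

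Of the actin isoform genes listed, Actb, which encodes β-actin, had almost all the counted reads. Its pooled level was 6308 CPM in BMCPs (95% Poisson interval 6294 to 6323) against 4809 CPM in mature cells (4797 to 4822). Such Poisson intervals, at 95% throughout, cover the counting of reads only, and PCR copies were counted as separate reads. Intervals on shares of cells, given further below, treat cells as independent draws although no label tied a cell to a mouse. They leave out differences between mice and are no comparison of the groups. Single mature mast cells had 480.4, 4746 and 9479.8 CPM (lowest, median and highest), and BMCPs 635, 5809 and 14472 CPM. The groups overlapped up to the highest mature value, above which lay BMCPs, and the ratio of -0.39 lay -0.15 from the all-gene median. Actg1, the gene of cytoplasmic γ-actin, had 348 and 191 pooled reads (2.93 and 1.64 CPM). That low value is uncertain, since 37.4% of the 50-base stretches in its transcripts also occur in other annotated genes and the count table does not show how such reads were treated.

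Among the proteins that bind actin monomers, the thymosins were the ones further from the other genes. Tmsb4x (thymosin β4, ENSMUSG00000049775, chromosome X, 167207093 to 167209315, minus strand), which holds actin monomers in reserve, had a pooled level of 3303 CPM in BMCPs against 1811 CPM in mature cells. Over mature mast cells the lowest, median and highest values were 494, 1633 and 4599.9 CPM, and over BMCPs 170.2, 2794 and 12394 CPM. The full ranges overlapped, and the lowest cell was a BMCP, but the lower quartile of the BMCPs (2306 CPM) was above the upper quartile of mature mast cells (2199 CPM). The ratio was -0.87, or -0.63 from the all-gene median, and it was -0.82 and -0.91 in the 2 column blocks. Tmsb10, which encodes a related thymosin, had 22.5 and 43.8 CPM and a ratio of -0.93, with 27% of its 50-base stretches shared with other genes.

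Profilin, which loads monomers onto growing filament ends, stayed nearer the middle. Pfn1 had 559, 1439 and 2649.8 CPM in single mature mast cells (lowest, median and highest) and 3.19, 1661 and 5639 CPM in BMCPs. The mature range lay inside that of the BMCPs, with a ratio of -0.31 from pooled levels of 1495 and 1859 CPM. BMCP numbers 40 and 55, with 29.3 and 3.19 CPM of Pfn1, were the 2 BMCPs under 100 CPM, and these cells had few genes with at least 10 reads (818 and 760, against a BMCP median of 2383). The other turnover factors were Cfl1 (cofilin, which severs filaments; 468 and 650.0 CPM, ratio -0.47), Wdr1 (a cofilin cofactor; -0.60), Twf2 (twinfilin; -0.65), Dstn (destrin; 0.10), Twf1 (0.29) and Cap1 (a monomer recycling factor; 0.36). The 9 genes of this group had a median ratio of -0.47, with 6 below the all-gene median. The value of Twf2 differed between the column blocks, with 0.23 in the first and -1.55 in the second. Twf1 had a ratio of -0.39 in the first block, opposite in sign to its pooled ratio.

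The 7 subunits of the Arp2/3 complex were all detected and had ratios from -0.92 to -0.09. Their median was -0.43, and 4 of the 7 (Actr3, Arpc2, Arpc1b and Arpc5) lay below the all-gene median. On the spike-in scale the same 7 had a median of 0.45 and 6 were above 0, so that the lower level in mature mast cells held for reads as a share of the total and not per spike-in read. Arpc2, the most abundant subunit per length (293 and 438 RPKM), had 0, 607 and 1481 CPM in single mature mast cells (lowest, median and highest). In BMCPs it had 0.842, 826 and 2660.2 CPM, and the pooled ratio was -0.58. Cells of both groups filled the range up to the highest mature value, above which lay BMCPs.

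Arpc5 had 0, 464 and 1156 CPM in single mature mast cells and 0, 507 and 5469 CPM in BMCPs, in the same order, with a ratio of -0.43. Its highest value came from BMCP number 55, which held 7.0% of the group's Arpc5 reads. Actr3, the subunit that with Actr2 forms the seed of the new branch, had 64.6 and 123 CPM and a ratio of -0.92. Actr2 had 235 and 268 CPM and -0.19, so that the 2 actin-related subunits did not stand at the same distance from the all-gene median (-0.68 and 0.06). Of the Actr3 stretches of 50 bases 26.3% are shared with other genes, which makes that value uncertain. The remaining subunits were Arpc1b (-0.51), Arpc4 (-0.20, with 0.40 and -0.94 in the 2 column blocks) and Arpc3 (-0.09). Of the Arpc1b stretches of 50 bases 24.3% are shared with other genes, so its value is uncertain too.

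The activators of the complex were at low levels, with Was and Wipf1 above the all-gene median and Wasf2 at it. Was, the WASP protein of blood cells, had 0, 100.1 and 678 CPM in single mature mast cells (lowest, median and highest) and 0, 0.743 and 955 CPM in BMCPs. At least 100 CPM was reached in 47 of 94 mature mast cells (50.0%, 95% interval 39.5 to 60.5%) and in 25 of 91 BMCPs (27.5%, 18.6 to 37.8%). More mature mast cells had a high Was level, while the pooled ratio was 0.28, the highest BMCPs were above the highest mature mast cells, and BMCP number 3 alone held 14% of the group's Was reads. Mature mast cells had a median of 4134.5 genes with a read and BMCPs 3750, and the same count of cells was not made for all genes. The part of this in the Was counts was not tested. Wasf2, a WAVE protein, had 0, 45.7 and 754 CPM in mature mast cells and 0, 18.9 and 1347 CPM in BMCPs, with a ratio of -0.23. The 2 column blocks gave 0.98 and -0.98 for Wasf2, in opposite directions. Wipf1, which stabilises WASP, had 38.1 and 36.2 CPM, and cell number 74 held 28.5% of the mature reads. Wipf1, Was and Wasf2 lay 0.31, 0.52 and 0.01 from the all-gene median. Without the top cell of each group the Wipf1 ratio was -0.19 in place of 0.07, and Wipf1 lay -0.07 from the all-gene median.

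The formins and the elongation factor Vasp were low, and all 3 that passed 5 CPM lay below the all-gene median, with a median ratio of -0.81. Fmnl1 (formin-like 1, ENSMUSG00000055805, chromosome 11, 103171107 to 103198901, plus strand), a formin of blood cells, had a pooled level of 54.3 CPM in BMCPs (52.9 to 55.6) against 18.5 CPM in mature cells (17.8 to 19.3). Single mature mast cells had 0, 0 and 273 CPM (lowest, median and highest) and BMCPs 0, 0 and 395 CPM. More than 50% of cells in both groups had no read of it, and the groups differed in how many cells were high. At least 100 CPM was reached in 6 mature mast cells (6.38%, 95% interval 2.38 to 13.4%) and in 20 BMCPs (22%, 14 to 31.9%). The ratio was -1.5, a 2.93-fold higher pooled level in BMCPs, and it was -1.5 and -1.52 in the 2 column blocks. On the spike-in scale it was -0.65, no longer past 2-fold, and with the median over cells in place of the pooled level it was 0.00, since both medians are 0.

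Diaph1, a formin that a small GTPase activates, had 0, 0 and 332 CPM in single mature mast cells and 0, 0.617 and 905 CPM in BMCPs (lowest, median and highest). Its pooled ratio was -0.69, with -0.19 in the first column block and -1.28 in the second. Vasp, which speeds filament growth at the leading edge, had 0, 6.95 and 305 CPM in mature mast cells and 0, 5.09 and 439 CPM in BMCPs. For Diaph1 and Vasp the bulk of the 2 groups overlapped. The pooled ratio of Vasp was -0.81, with 15 BMCPs and 5 mature mast cells at 100 CPM or above, while for Diaph1 these numbers were 22 and 21. Evl, a relative of Vasp, had 0 reads in mature mast cells, which allows a level of up to 0.0252 CPM (3 reads), and 98 reads in BMCPs, of which BMCP number 23 held 40.8%.

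Capping proteins, which stop filament ends from growing, had pooled ratios near the all-gene median. Capzb, the β subunit of the capping heterodimer, had 8.0, 879 and 2678 CPM in single mature mast cells and 1.4, 1138 and 4799 CPM in BMCPs (lowest, median and highest), with a ratio of -0.31. The groups overlapped, and the 2 BMCPs under 100 CPM were again numbers 40 and 55. Its partner subunits were Capza2 (467 and 623 CPM, -0.42) and Capza1 (26.3 and 30.2 CPM, -0.19), the latter with 64.5% of its 50-base stretches shared with other genes. In the 2 column blocks Capza1 had ratios of -0.97 and 0.47, in opposite directions.

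Capg, a calcium-dependent capping protein of the gelsolin family, differed in the number of cells with a high level more than in its pooled level (810.3 and 699 CPM, ratio 0.21). Over mature mast cells the lowest, median and highest values were 0, 645 and 2613 CPM, and over BMCPs 0, 647 and 2561 CPM, so that the medians were nearly equal. Yet 88 of 94 mature mast cells reached 100 CPM (93.6%, 95% interval 86.6 to 97.6%), against 63 of 91 BMCPs (69.2%, 58.7 to 78.5%). The BMCPs thus held more cells with little or no Capg beside cells at the level of mature mast cells. As for Was, the part of the lower number of genes detected in BMCPs in this count was not tested. The count of cells was not set beside all genes. Gsn, gelsolin itself, had 143 and 143 CPM and a ratio of 0.00, and Vil1, villin, had 6 reads in 1 mature mast cell and 0 in BMCPs (up to 0.0257 CPM).

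The bundling, crosslinking and coronin group held the member that differed most among the abundant ones. Coro1a (coronin 1A, ENSMUSG00000030707, chromosome 7, 126699773 to 126707787, minus strand), an Arp2/3-binding coronin of blood cells, had a pooled level of 951 CPM in BMCPs (946 to 957) against 238 CPM in mature cells (235 to 241). Single mature mast cells had 0, 155 and 2017 CPM (lowest, median and highest), and BMCPs 0, 747 and 4201 CPM. The groups overlapped, with cells near 0 in both, but the median of the BMCPs was above the upper quartile of mature mast cells (391 CPM). At least 100 CPM was reached in 48 mature mast cells (51.1%, 95% interval 40.5 to 61.5%) and in 73 BMCPs (80.2%, 70.6 to 87.8%).

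The Coro1a ratio was -1.99, a 3.99-fold higher pooled level in BMCPs, and lay -1.75 from the all-gene median. It was -1.71 and -2.29 in the 2 column blocks, -2.05 without the top cell of each group and -1.11 on the spike-in scale, past 2-fold in each. The related coronin Coro1b showed no such difference, with 505 and 505 CPM and a ratio of 0.00. Over mature mast cells the lowest, median and highest values were 0, 419.8 and 2500.3 CPM of Coro1b, and over BMCPs 0, 416 and 4425 CPM. Per length Coro1b was above Coro1a in mature mast cells (158 and 85.6 RPKM) and below it in BMCPs (158 and 342 RPKM).

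Flna (filamin A, ENSMUSG00000031328, chromosome X, 74223461 to 74249820, minus strand), which links crossed filaments into a mesh, had the ratio furthest from 0 among the members that passed 5 CPM, -2.52, but few cells held its reads. It had a pooled level of 80.3 CPM in BMCPs (78.7 to 81.9) against 13.2 CPM in mature cells (12.5 to 13.8). Single mature mast cells had 0, 0 and 472 CPM (lowest, median and highest), and BMCPs 0, 0 and 1781 CPM. A read was found in 15 of 94 mature mast cells and 26 of 91 BMCPs, and 100 CPM was reached in 4 and 10 cells. Mature cell number 41 held 41.8% of the group's Flna reads and BMCP number 51 28.6%. Without both cells the ratio was -2.75, the column blocks gave -1.66 and -4.1, and the spike-in scale gave -1.67.

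The remaining crosslinkers went both ways. Lcp1 (L-plastin, a bundler of blood cells) had 498 and 725 CPM and a ratio of -0.54. Actn4 (α-actinin 4) had 159.7 and 111 CPM and, at 0.52, the highest ratio of the 50 members, 0.76 above the all-gene median. At least 100 CPM of Actn4 was reached in 39 mature mast cells and 22 BMCPs. Its relative Actn1 had 26 and 76 reads, below the minimum.

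**Figure D3:**
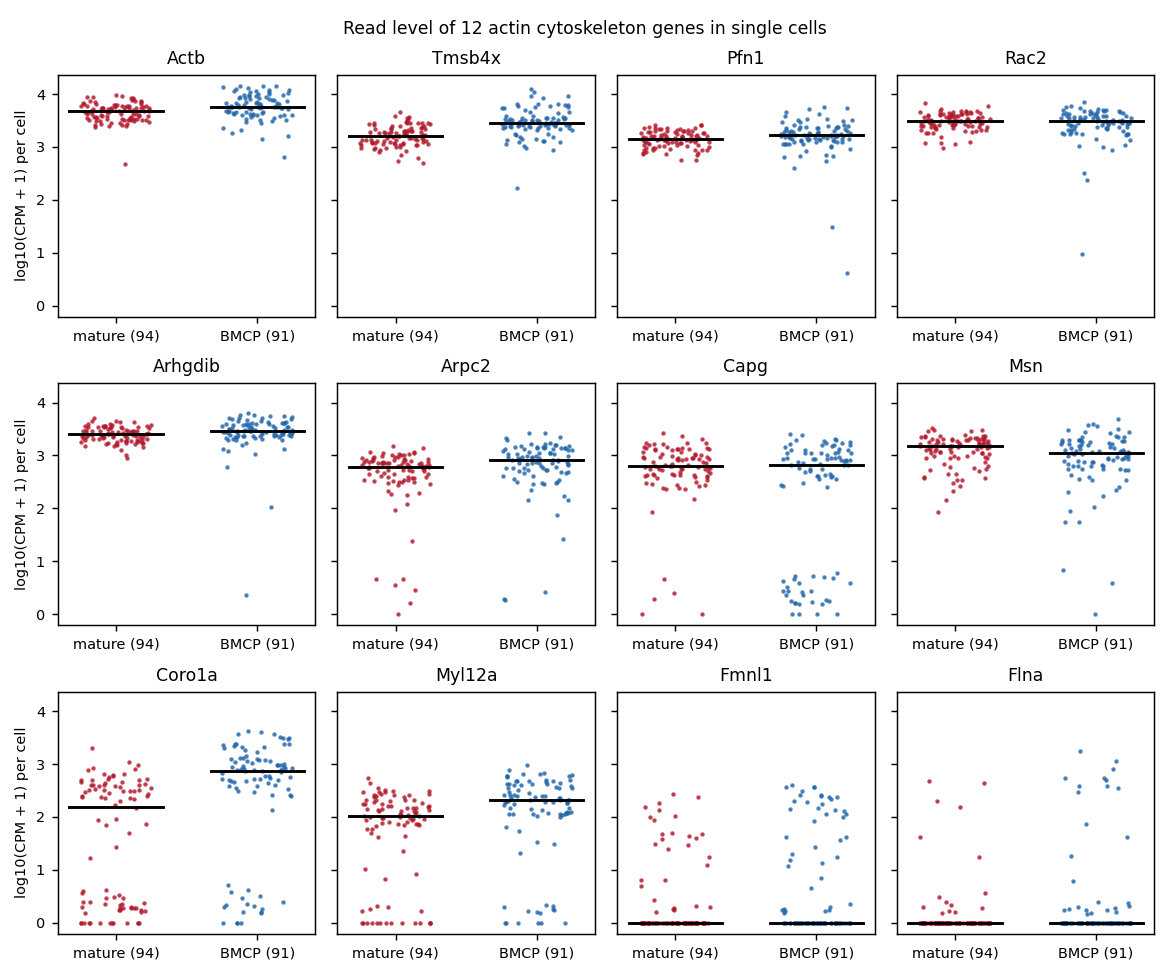
Log10(CPM + 1) in single cells (vertical axis) of 12 members, with mature mast cells in red (94), BMCPs in blue (91), black bars at the median and points spread sideways only for view. Actb, Rac2 and Arhgdib overlap between the groups, Coro1a has a median of 155 against 747 CPM, and Capg has a band of BMCPs near 0.

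The small GTPases and their inhibitors were the group nearest to equal CPM, with a median ratio of -0.01 over 6 genes and 4 of the 6 above the all-gene median. Rac2, the Rac of blood cells, had 944, 3106 and 6624 CPM in single mature mast cells (lowest, median and highest) and 8.38, 3092 and 6963 CPM in BMCPs. The medians differed far less than cells did, and the pooled ratio was 0.03 (0.91 on the spike-in scale, where all 6 genes were above 0). Cdc42, which acts upstream of WASP, had 952 and 951 CPM (0.00), and Rhoa, which acts upstream of Diaph1 and myosin II, had 201 and 204 CPM (-0.02). Rac1 had 49.2 and 45 CPM (0.13), but 50.3% of its 50-base stretches occur in other annotated genes, chiefly the overlapping Daglb. In the first column block the Rac1 ratio was -0.63, opposite in sign.

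The GTPase inhibitors Arhgdib and Arhgdia, which keep GTPases in the cytosol, had ratios of -0.26 and -0.57. Arhgdib had 914, 2502 and 5022 CPM in single mature mast cells and 1.33, 2898 and 6404 CPM in BMCPs (lowest, median and highest). The mature range lay inside that of the BMCPs. The coefficient of variation over cells was 0.317 and 0.403 for Arhgdib and 0.332 and 0.426 for Rac2 (mature mast cells and BMCPs), which is close to the 0.365 and 0.482 of Actb.

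The ERM proteins, which tie filaments to the plasma membrane, differed among themselves. Msn (moesin), the most abundant of the 3 per length (226 and 203 RPKM), had 84.3, 1489 and 3266 CPM in single mature mast cells and 0, 1091 and 4844 CPM in BMCPs (lowest, median and highest), with a ratio of 0.15. Ezr (ezrin) had 0, 0.691 and 665 CPM in mature mast cells and 0, 0.586 and 965 CPM in BMCPs, with a ratio of -0.61. Both genes overlapped between the groups, and Msn lay 0.39 from the all-gene median and Ezr -0.37. Rdx (radixin) had 68.1 and 95.8 CPM, a ratio of -0.49, and Ezr varied between the column blocks (-0.07 and -1.21).

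Of the myosin II and tropomyosin genes, 4 of 6 lay below the all-gene median, with a median ratio of -0.48 (0.40 on the spike-in scale). Myl12a, a regulatory light chain whose phosphorylation turns the motor on, was the furthest, at -0.98 (123 and 245 CPM), just inside the 2-fold limit. Over mature mast cells the lowest, median and highest values were 0, 103 and 533 CPM of it, and over BMCPs 0, 204 and 964 CPM. The groups overlapped, with 48 mature mast cells and 71 BMCPs at 100 CPM or above. Its near copy Myl12b had 0, 273 and 872 CPM in mature mast cells and 0, 428 and 1247 CPM in BMCPs, with a ratio of -0.58. The 2 genes lie side by side and share sequence (21.1% and 25.4% of 50-base stretches occur in other genes), so their separate values are uncertain.

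The heavy chain gene Myh9 was low, with 14.6 and 24.9 CPM and a ratio of -0.73, and mature cell number 27 held 37.3% of its reads there. The essential light chain gene Myl6 had 90.5 and 97.4 CPM (-0.11). The tropomyosins Tpm3 and Tpm4, which coat filaments, had ratios of -0.37 and -0.20. Myl6 and Tpm4 thus lay above the all-gene median and Myh9 and Tpm3 below it.

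The adhesion linkers were on both sides of the all-gene median. Tln1 (talin 1), which couples integrins to actin, had 0, 212 and 1785 CPM in single mature mast cells and 0, 215 and 2138 CPM in BMCPs (lowest, median and highest), with a ratio of -0.21. The groups overlapped, with nearly equal medians. Vcl (vinculin), which joins talin to filaments, had 0, 0 and 310.2 CPM in mature mast cells and 0, 0 and 2119 CPM in BMCPs, and BMCP number 40 held 45.7% of the group's reads. The Vcl ratio of -0.50 was 0.03 without the top cell of each group.

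A further 112 genes of the same pathways were listed beside the members, and 82 of them had at least 5 CPM in either group. Their median ratio was -0.33, 15 were at least 2-fold higher in BMCPs (beside 18.2% of all genes), 8 in mature mast cells (beside 9.83%), and 47 of 82 lay below the all-gene median. Scin (adseverin, ENSMUSG00000002565, chromosome 12, 40059769 to 40134228, minus strand), a calcium-dependent severing protein of the gelsolin family, was the furthest apart. It had 50 reads in all mature mast cells together, at most 2.89 CPM in a cell, and 72220 reads in BMCPs. Single BMCPs had 0, 3.74 and 6508 CPM (lowest, median and highest), and 44 of 91 reached 100 CPM (48.4%, 37.7 to 59.1%), against 0 of 94 mature mast cells, where a count of 0 allows a share of up to 3.19% (3 of 94 cells). The pooled levels were 0.421 and 619 CPM, with a ratio of -8.77, and the column blocks gave -8.88 and -8.62.

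Other pathway genes higher in BMCPs were Cnn2 (calponin 2, 175 and 432 CPM, ratio -1.3), Arhgap45 (a GTPase-activating protein, 316 and 719.6 CPM, -1.18), Tmod3 (tropomodulin 3, a capper of pointed ends, -1.11) and Flii (a gelsolin relative, -1.05). These 4 were within 2-fold on the spike-in scale, at -0.43, -0.30, -0.24 and -0.17. Higher in mature mast cells were Actr3b, a paralogue of the Actr3 subunit (117 and 18.8 CPM, ratio 2.57), Kalrn, an exchange factor for Rac and RhoG (193 and 45.5 CPM, 2.06), and Rhoc (71.9 and 31.2 CPM, 1.18, with 2.33 and 0.55 in the 2 column blocks). Actr3b and Actr3 thus stood on opposite sides of the all-gene median, at 2.81 and -0.68. At least 100 CPM of Actr3b was reached in 30 of 94 mature mast cells (31.9%, 95% interval 22.7 to 42.3%) and 5 of 91 BMCPs (5.49%, 1.81 to 12.4%). Per length Actr3b was above Actr3 in mature mast cells (48.2 and 13.9 RPKM) and below it in BMCPs (7.75 and 26.5 RPKM). That order is uncertain, since 26.3% of the Actr3 stretches of 50 bases are shared with other genes and none were computed for Actr3b.

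Members were only loosely related across cells within a group. Spearman correlations were taken over members with at least 100 CPM in that group, on CPM with granule genes left out of the total, and cells share plate, amplification and depth effects, so they are a description. The median over 496 pairs in mature mast cells was 0.024 (0.006 over all gene pairs), and over 528 pairs in BMCPs 0.038 (0.016 over all pairs). Pairs above 0.3 were 5 (1.01%, against 0.251% of all pairs) in mature mast cells and 17 (3.22%, against 0.550%) in BMCPs. The highest in BMCPs joined Cfl1 and Pfn1 (0.54), Pfn1 and Tmsb4x (0.53), Cfl1 and Tmsb4x (0.47) and Actb and Tmsb4x (0.45). In mature mast cells the highest were Pfn1 and Tmsb4x (0.40), Arpc1b and Arpc3 (0.39) and Actb and Tmsb4x (0.38).

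Among BMCPs, cells with a larger share of granule reads had less of some members and more of others. The granule share ranged from 2.97% to 33.8% of reads in single BMCPs and from 14.3% to 36.9% in mature mast cells. Across the 91 BMCPs its correlation was -0.40 with Tmsb4x, -0.39 with Coro1a and -0.30 with Actb. It was 0.45 with Capg and 0.34 with Rac2. Those named are the lowest and highest of the 33 members. The median over the 33 was -0.02, beside 0.03 over all 1796 genes at that level. Of the 33, 18 were negative and 2 lay below -0.3, beside 3.45% of all genes below it. Across the 94 mature mast cells the values were 0.21 for Tmsb4x, -0.22 for Coro1a, -0.11 for Actb, 0.27 for Capg and 0.07 for Rac2, so that Tmsb4x differed in sign between the groups. The difference between these correlations was not tested.

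The basophil gene Mcpt8 went with lower granule shares among BMCPs, with a correlation of -0.61. Its correlation was 0.47 with Tmsb4x, 0.44 with Pfn1, 0.42 with Coro1a, 0.40 with Cfl1, 0.36 with Arpc1b and 0.32 with Actb, and -0.32 with Capg. Named are all members past 0.3 in either direction, and the share of all genes past it was not computed. The median over members was 0.06, beside 0.00 over all genes.

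**Figure D4:**
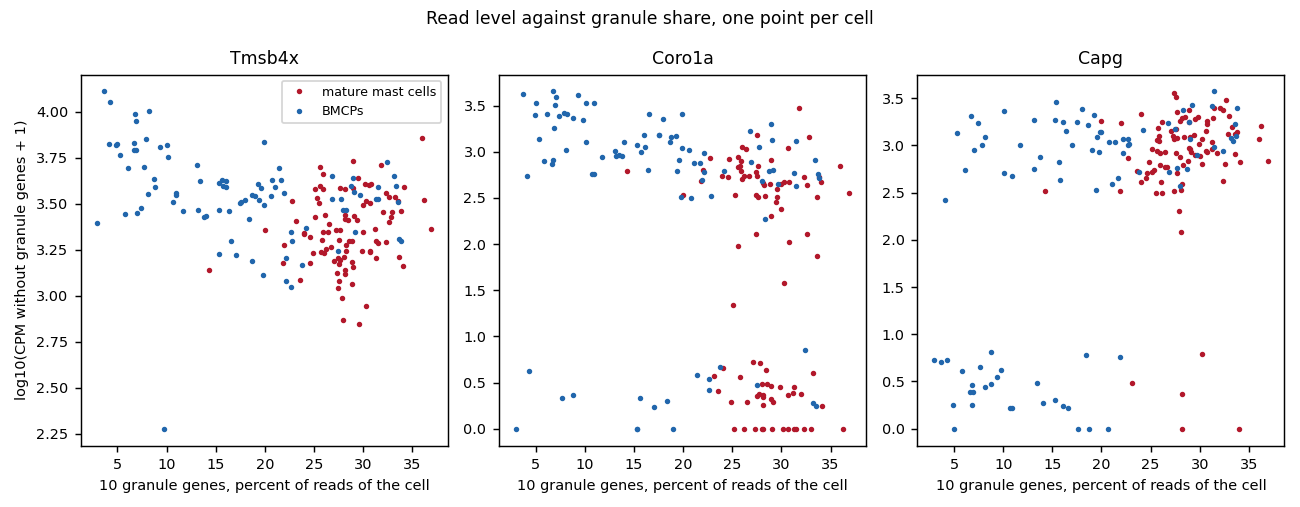
Log10(CPM without granule genes + 1) of Tmsb4x, Coro1a and Capg (vertical axes) against the percent of a cell's reads on 10 granule genes (horizontal axes), 1 point per cell, mature mast cells in red and BMCPs in blue. Among BMCPs the correlations are -0.40, -0.39 and 0.45, and the BMCPs near 0 for Capg lie at the lower granule shares.

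The 2 BMCPs left out for their low Cpa3 were high in several of the genes named above. Coro1a had 3274 and 4132 CPM in them, against a highest value of 4201 CPM in kept BMCPs, and Tmsb4x had 5869.7 and 11159.5 CPM. Evl, nearly absent from the kept cells, had 22.5 and 56.2 CPM. With both cells kept, 6 members passed 2-fold towards BMCPs (Actr3, Coro1a, Flna, Fmnl1, Myl12a and Tmsb10) in place of 3, beside 19.2% of all genes.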

How the data were processed

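The deposited file was a table of read counts per gene with 1 column per cell. Per the labels' protocols, poly(A) RNA of single cells was reverse transcribed from oligo-dT with ERCC spike-in RNA, amplified with 23 PCR cycles and sequenced as 50 bp single-end reads, without molecular identifiers. GSNAP, HTSeq 0.5.3p3 and the mouse build mm10 are named, per the submitters' processing notes, and their settings, the annotation and the use of strand are not given in the sources used here. Its no-feature row held 16.3% of the reads of BMCPs and 12.5% of those of mature cells, and these, the ambiguous reads (3.24% and 2.97%) and the reads not aligned (14.8% and 13.1%) were left out. No kept cell had a count in the row for multiply aligned reads, so genes with near-identical copies and overlapping or antisense genes are uncertain.

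Cells were kept with at least 100000 gene reads and at least 1000 CPM of Cpa3. Each well was sorted to hold 1 cell, and doublets were not called. Counts were summed per group and divided by summed gene reads to give CPM, with 1 CPM added before log2. Symbols for 45143 of 46078 gene identifiers (98.0%), positions and exon lengths came from GENCODE M21 (GRCm38), and shared 50-base stretches from its transcripts by exact match. Beside the shared parts given with the members above, those of Vcl, Tpm3 and Cfl1 were 25.1%, 23.2% and 18.3%. Intervals are at 95%. Those for pooled counts are exact Poisson and cover the counting of reads only. Those for shares of cells are exact Clopper-Pearson, treat cells as independent draws and leave out differences between mice. Counts of cells at 100 CPM were not set beside those of all genes. No test was made between groups. Analyses used Python 3.11.15, pandas 2.3.3, numpy 2.4.6, scipy 1.17.1, R 4.3.3 and edgeR 4.0.16 (TMM factors only). The ratio code was tested on simulated data.

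The members, the pathway genes and the marker lists were chosen with earlier results of these data known. The B cell list holds 1 gene that is not reported here. Every member with at least 5 CPM in either group could be named. Lowest, median and highest cells are given for members with a ratio at least 1 from 0 or from the all-gene median and for the 2 members with the highest RPKM in each role group. Pathway genes are named where the ratio is at least 1 from 0, the higher group has at least 50 CPM and at least 50% of its cells have a read. Alternatives were TMM and spike-in scaling, totals without granule genes, means and medians over cells, other filters, another pseudocount, leaving out the top cell of each gene, and 4 others chosen after the data were seen.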

Additional observations from a re-analysis of the deposited data

How the results depend on the processing

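The median ratio of the members was -0.34 as reported, -0.29 without the top cell of each gene, -0.15 with totals that leave out granule genes, -0.11 with TMM scaling and -0.018 with medians over cells. It had the opposite sign on the spike-in scale, at 0.53, and at 0.33 without BMCP number 55, as did the median of all genes (0.61 and 0.41). The members' median minus that of all genes was -0.10 as reported, -0.17 without the top cell of each gene, -0.16 in the first column block, -0.018 with medians over cells and -0.32 with no minimum level, where 22661 genes entered the all-gene median. The count of members at least 2-fold higher in mature mast cells was 0 as reported, 6 and 2 on the spike-in scale with and without BMCP number 55 (beside 30.2% and 22.4% of all genes), and 4 with medians over cells (Actn4, Rac1, Was and Wasf2, beside 8.86%). The count at least 2-fold higher in BMCPs was 3 as reported and 5 without the top cell of each gene, 5 and 10 in the column blocks, and 6 with means over cells, with no cell filter and with the read minimum alone (beside 15.2%, 23.3%, 23.7%, 18%, 19.2% and 19.2% of all genes). It was 2 on both spike-in scales (Coro1a and Flna, beside 7.82% and 9.1%) and with medians over cells (Coro1a and Twf2, beside 1.2%). Coro1a was among them in each of the 15 alternatives. The difference in summed read share was -0.69 percentage points as reported, -0.70 without BMCP numbers 40 and 55, -0.38 without granule genes in the totals, -0.75 and -0.56 with means and medians over cells, -0.73 with no cell filter or with the read minimum alone, and -0.75 and -0.63 in the column blocks. The cause of these differences was not tested, other than the scaling itself.

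TMM scaling, another pseudocount and another minimum level could not be computed for the summed share. A share of gene reads has no spike-in form, but the members' summed counts can be divided by spike-in counts. This quotient was 21 for mature mast cells against 14.4 for BMCPs, with BMCP number 55 included. Its direction was opposite to that of the share differences above. The column blocks, leaving out BMCP numbers 40 and 55 and the read minimum alone were chosen after the data were seen. No paired analysis was possible because the numbers that cells of both groups share only name cells and no test was made. Members near 5 CPM, and those with most reads in a few cells such as Flna, are limited by the number of cells sampled, and the absence of molecular identifiers means that read depth overstates the number of molecules behind a value.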
